A study of Mus musculus with 40 samples.

Results

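Transcripts of 10 TNF receptor superfamily genes were followed in mouse cardiac fibroblasts across 10 combinations of virus and ligand. The members, taken by name, were *Tnfrsf1a*, *Tnfrsf1b*, *Cd40*, *Tnfrsf9*, *Tnfrsf12a*, *Fas*, *Tnfrsf10b*, *Tnfrsf21*, *Ngfr* and *Tnfrsf11b*. Each matched 1 Ensembl identifier, so they were 10 of 55414 genes in the count table, and all 10 were among the 25210 genes with at least 10 counts in total that were tested. The fibroblasts came from hearts of C57BL/6J TAK1fl/fl mice, whose LoxP sites flank exon 2 of *Map3k7*, and were used at passage 1. In 5 groups they carried an adenovirus for LacZ, which leaves TAK1 intact, and in the other 5 groups an adenovirus for Cre recombinase (iCre), each driven by the CMV promoter. No group received Cre without the floxed alleles, so effects of Cre itself and of TAK1 deletion cannot be told apart. Deletion in the text below stands for iCre against LacZ. Under serum starvation, cells of each virus were left without ligand (CTRL) or kept for 24 h with 1 of 4 ligands, which were TNFα and TGFβ at 10 ng/ml, IL-1β at 15 ng/ml and bFGF at 20 ng/ml. There were 4 replicates a group and 40 libraries in all. All groups, CTRL included, had been expanded in medium that contained human bFGF at 20 ng/ml.

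Receptors of this superfamily bind trimeric ligands of the TNF family through cysteine-rich repeats outside the cell. Members with a cytoplasmic death domain can assemble complexes that activate caspase-8, whereas members without one bind TRAF adaptors directly, and both kinds can recruit TAK1, the kinase that switches on the IKK complex of the NF-κB pathway and MAP kinases. Cardiac fibroblasts are known to respond to TNFα and IL-1β released after injury, and soluble decoy receptors of the family intercept ligands before they reach a cell. In the sections that follow the members are ordered by these roles.

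Gene counts added up to 25360947 in the smallest library and 66160732 in the largest. *Map3k7*, the gene for TAK1, was lower in iCre than in LacZ fibroblasts by 0.28 to 0.82 on the log2 scale with every ligand and in CTRL, although the adjusted p of 0.137 in CTRL and 0.351 with bFGF missed the threshold of 0.05 (0.00393 and 0.000409 with the replicate number as a block). Its counts include transcripts of the recombined allele. The 10 fibroblast markers summed to between 15351 and 69713 CPM (counts scaled to library size) in a library, 6 macrophage and leukocyte markers to between 17.02 and 169 CPM and 4 lymphocyte markers to at most 0.187 CPM, with *Cd3e* at 0 counts. Libraries with the same replicate number deviated together, and libraries of replicate 2 lay farthest from the others of their group for several members. Log2 values rose with the GC content of transcripts in the 12 libraries of iCre fibroblasts given a ligand other than bFGF (by 0.208 to 0.315 per 10% of GC) and fell in the other 28 (−0.230 to −0.0118), so values corrected for GC content are given wherever they end a printed call of a member. In these bulk cultures, fewer cells of a type and less RNA per cell cannot be told apart.

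Without ligand, the 10 members covered a wide range of levels per transcript length. In LacZ CTRL fibroblasts *Tnfrsf1a*, the ubiquitous receptor for TNFα, was at a mean of 115 RPKM (CPM per kilobase of exon; n = 4), followed by *Fas* with 17.7, *Tnfrsf1b* with 14.8, *Tnfrsf10b* with 9.88 and *Tnfrsf12a* with 5.45 RPKM. *Tnfrsf11b* was at 2.47 and *Tnfrsf21* at 1.62 RPKM. *Tnfrsf9* was at 0.613, *Cd40* at 0.379 and *Ngfr* at 0.110 RPKM, the 3 lowest levels of the 10. *Ngfr* had between 1 and 64 counts in a library, so its CPM values carry a large counting error.

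The members also differed in how far they moved across the 10 groups. *Tnfrsf11b* had the widest span, with a mean in its highest group (LacZ TGFβ) 51.9 times that in its lowest (iCre CTRL). The ratio of highest to lowest group mean was 17.9 for *Tnfrsf12a*, 15.9 for *Tnfrsf9*, 9.92 for *Tnfrsf21*, 8.98 for *Fas*, 7.49 for *Cd40* and 7.43 for *Ngfr*. It was only 2.87 for *Tnfrsf1b*, 1.97 for *Tnfrsf10b* and 1.54 for *Tnfrsf1a*. In the order of group means most neighbouring groups overlapped in their replicates. The exceptions were *Tnfrsf9* between iCre IL-1β and iCre CTRL, *Fas* between LacZ TNFα and LacZ IL-1β and between LacZ IL-1β and iCre IL-1β, *Tnfrsf10b* between LacZ TNFα and LacZ IL-1β, and *Tnfrsf11b* between iCre TGFβ and LacZ TNFα.

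**Figure D1:**
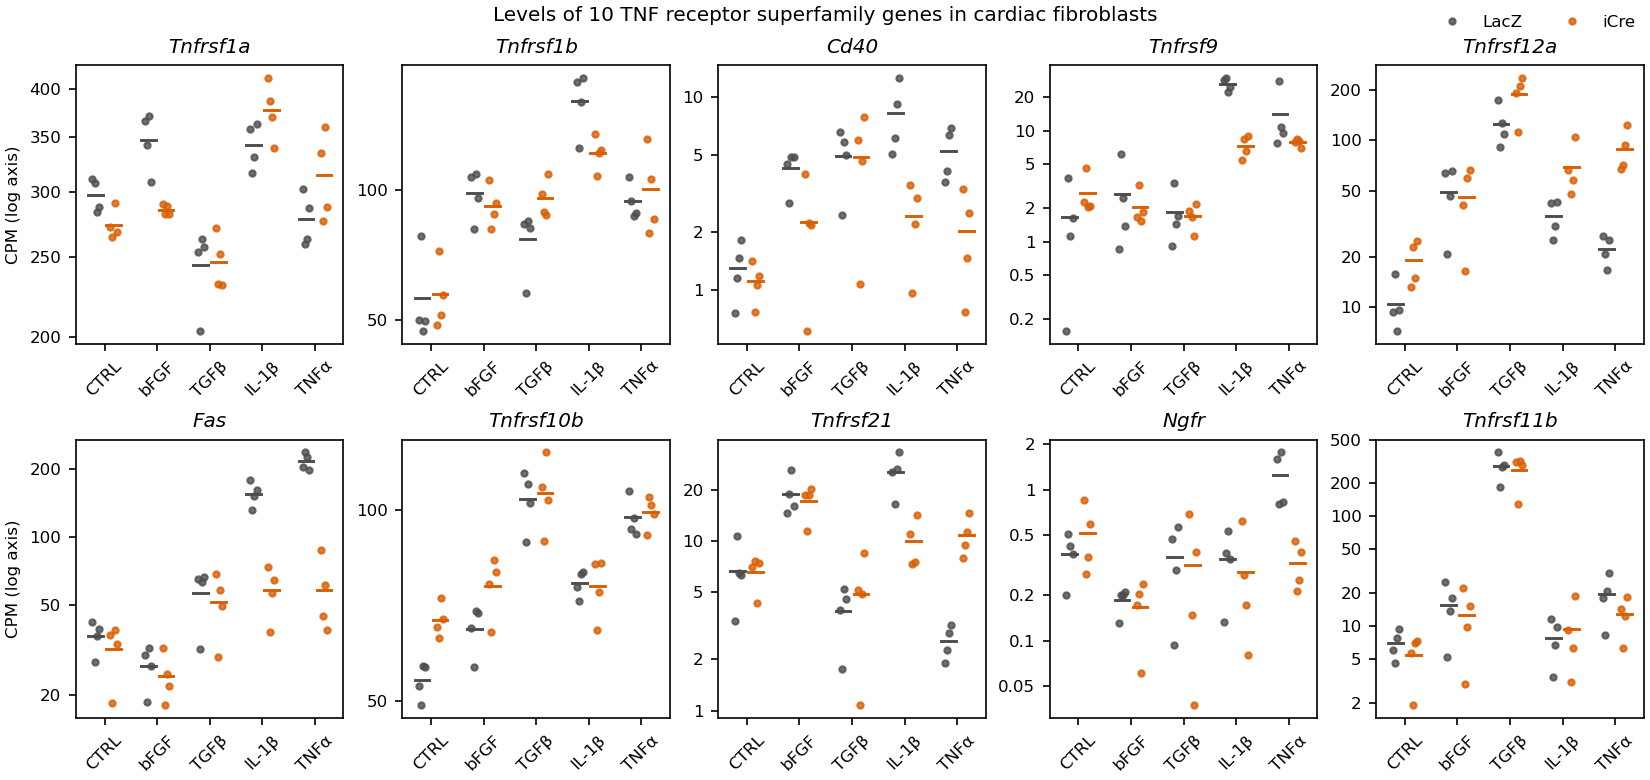
CPM of the 10 receptor genes in each library on a log axis, with ligand on the horizontal axis, LacZ libraries in grey, iCre libraries in orange and a short bar at each mean of 4 replicates. *Fas* in LacZ fibroblasts sits between 132 and 238 CPM with IL-1β and TNFα, above every other group, and *Tnfrsf11b* sits between 131 and 384 CPM with TGFβ in both kinds of fibroblast.

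The first set of comparisons asked which receptor genes each ligand moved in fibroblasts with intact TAK1. A change was called at an adjusted p of at most 0.05 in edgeR's quasi-likelihood test, over all genes tested, of 4 libraries against 4, and SE is the standard error of a log2 fold change. The 64 calls of members made without the block were all kept with it, those lost below without 1 replicate number included. With TNFα, 8 of the 10 members rose and *Tnfrsf21* fell, whereas 10.9% of all genes rose and 10.4% fell. IL-1β raised 7 members and lowered none, against 11.1% of all genes higher and 9.55% lower. With TGFβ 5 members rose and none fell, where 17.5% of all genes rose and 19.3% fell. bFGF raised 4 and lowered none, with 7% of all genes higher and 4.64% lower. With the replicate block 9 members were called for bFGF (8 higher, *Fas* lower) beside 27.3% of all genes in either direction, and for the other 3 ligands the count stayed within 1.5 times. The median log2 fold change of the 10 members was 1.65 with IL-1β, 1.29 with TNFα, 0.78 with bFGF and 0.56 with TGFβ, while that of all genes tested was −0.10, −0.08, −0.03 and −0.17. All 4 comparisons share the 4 LacZ CTRL libraries. *Cd40* and *Tnfrsf12a* were the members that rose with each of the 4 ligands. *Tnfrsf1b* with TGFβ gave 0.47, with an adjusted p of 0.0574 in edgeR, 0.0418 in DESeq2 and 0.0906 after GC correction. With the block it was called at 0.049998, and with GC correction and the block it was not (0.0796). Pericyte and smooth muscle markers moved as well, with 3 of 4 lower under TNFα, 2 of 4 under IL-1β, 2 of 4 under TGFβ and 1 of 4 under bFGF. *Rgs5*, which was not called with any of the 4 ligands in LacZ, made up most of their sum, which lay between 93.1 and 544 CPM in LacZ CTRL, 405 and 940 CPM with TGFβ, 245 and 762 CPM with IL-1β and 62.0 and 356 CPM with TNFα. The cardiomyocyte marker *Tnnt2* and the Schwann cell marker *S100b* fell with TGFβ, IL-1β and TNFα. With TGFβ the macrophage marker *Cd68* fell and the lymphocyte marker *Ms4a1*, near 0 in all libraries, rose, and the part of such cells in the results was not tested.

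In iCre fibroblasts the same comparisons were made against iCre CTRL. TNFα raised 6 and lowered none, with 14.7% of all genes higher and 12.3% lower, and with the block it raised 9, beside 36.1% of all genes in either direction (7 with GC correction as well). IL-1β raised 5 and lowered none, with 9.38% higher and 6.88% lower, and with the block it raised 9, beside 33.8% of all genes in either direction (8 higher and *Ngfr* lower with GC correction as well). TGFβ raised 5 and lowered none, with 18.6% higher and 18.8% lower. bFGF raised *Tnfrsf1b* and *Tnfrsf21* only, with 1.79% of all genes higher and 0.635% lower, and with the block 7 members were called (5 higher, 2 lower) beside 16.7% of all genes. A different number of calls in iCre is not a test of a difference between viruses, which is given further on as an interaction.

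**Figure D2:**
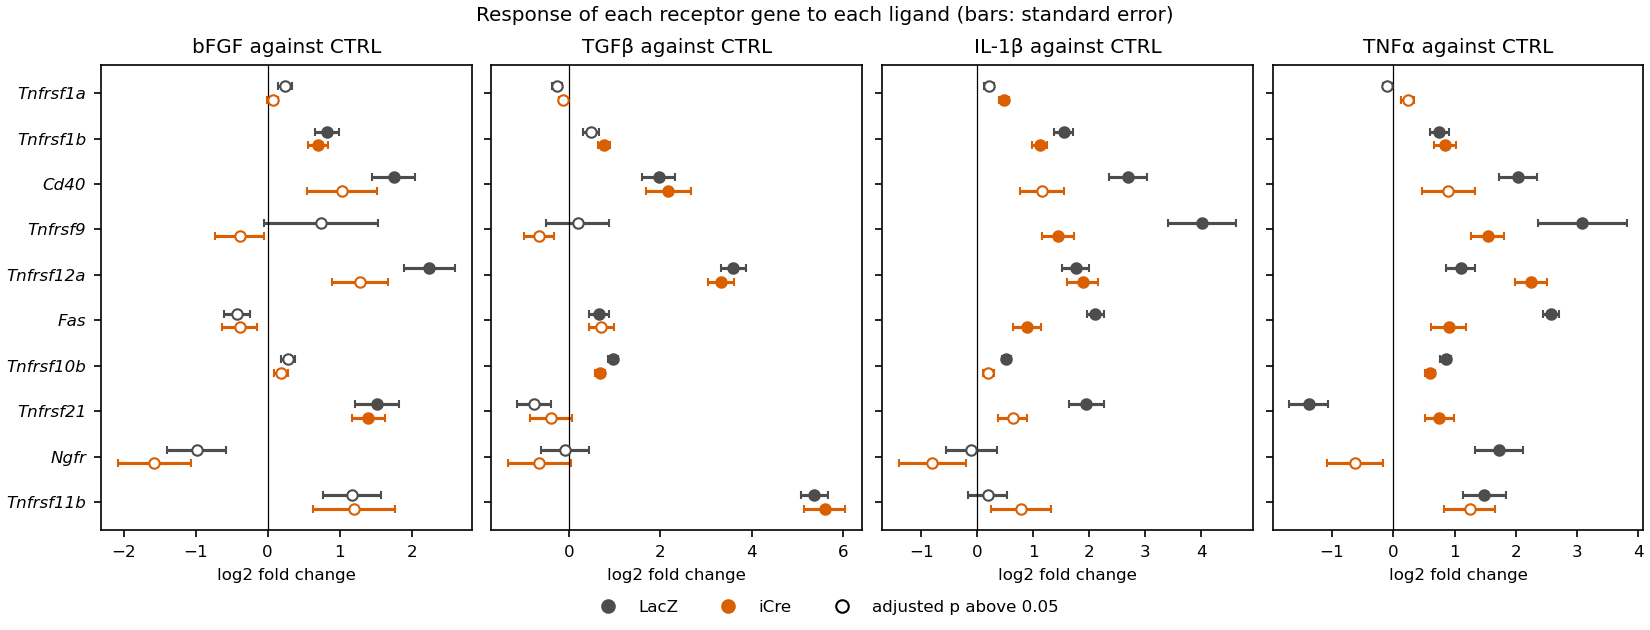
Log2 fold change of each receptor gene against CTRL of the same virus for bFGF, TGFβ, IL-1β and TNFα, with bars for the standard error, grey for LacZ and orange for iCre and open circles where the adjusted p is above 0.05. *Tnfrsf11b* stands at 5.37 and 5.60 with TGFβ, and *Tnfrsf21* is the single member with a filled circle below 0, at −1.38 with TNFα in LacZ fibroblasts.

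*Tnfrsf1a* (ENSMUSG00000030341; GRCm38 chromosome 6, 125349362 to 125362484, plus strand) encodes TNFR1, the death-domain receptor that starts most responses to TNFα. Its group means spanned the narrowest range of the members. In LacZ CTRL it was at 311, 307, 284 and 288 CPM in replicates 1 to 4, and with TNFα at 303, 259, 263 and 286 CPM. The groups overlapped and the log2 fold change was −0.09 (SE 0.08, adjusted p = 0.445). With bFGF, IL-1β and TGFβ its log2 fold changes in LacZ were 0.24, 0.21 and −0.27, with adjusted p of 0.137, 0.114 and 0.0619, and all 3 passed with the block (0.0183, 0.038 and 0.028) and by DESeq2. With GC correction and the block the IL-1β value was 0.17 (0.0715). With TGFβ in iCre the gene gave −0.13 (adjusted p = 0.262), which became −0.38 (0.00426) after GC correction. With IL-1β in iCre fibroblasts the replicates were at 412, 386, 369 and 339 CPM, above the 4 iCre CTRL replicates at 272, 264, 291 and 268 CPM. This was called with a log2 fold change of 0.48 (SE 0.09, adjusted p = 0.0052). After GC correction it was 0.25 (adjusted p = 0.0783, or 0.00262 with the block as well). No interaction with TAK1 deletion was called for this gene, whose values were 0.25 with IL-1β (adjusted p = 0.192) and 0.32 with TNFα (0.109). The TNFα value had an adjusted p of 0.0473 with the block, and with GC correction and the block it was 0.12 (0.458).

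*Tnfrsf1b* (ENSMUSG00000028599; chromosome 4, 145213463 to 145246870, minus strand) encodes TNFR2, which lacks a death domain and binds TRAF2. The replicates in LacZ CTRL were at 50.1, 78.6, 47.1 and 49.6 CPM, with replicate 2 far above the other 3. In LacZ with IL-1β they were at 178, 125, 161 and 183 CPM, all above CTRL, and this was the highest group for the gene. Its log2 fold change of 1.54 (SE 0.17) had an adjusted p of 0.000279. TNFα and bFGF raised it by 0.75 (adjusted p = 0.00715) and 0.83 (adjusted p = 0.0125) on the log2 scale, to means of 94.5 ± 9.23 and 98.5 ± 12.7 CPM (SD, n = 4). The TNFα call was lost without replicate 1 or 4 (adjusted p = 0.0502 and 0.0517) and the bFGF call without replicate 1, 3 or 4 (0.0818, 0.134 and 0.101). With the block the adjusted p was 2.11e-06 for TNFα and 0.000185 for bFGF. IL-1β gave more than TNFα in LacZ, by 0.78 (SE 0.12, adjusted p = 0.00307), with no overlap between the groups.

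In iCre fibroblasts all 4 ligands raised *Tnfrsf1b*. The log2 fold change was 1.11 with IL-1β (adjusted p = 0.000674), 0.85 with TNFα (0.006), 0.77 with TGFβ (0.000866) and 0.69 with bFGF (0.035). The bFGF call was lost without replicate 1, 3 or 4 (0.216, 0.296 and 0.235) and the TNFα call without replicate 3 (0.0624). With IL-1β the iCre replicates were at 135, 108, 122 and 124 CPM, which overlapped the LacZ replicates. The deletion contrast there was −0.42 (SE 0.13, adjusted p = 0.0549, or 0.000386 with the block), and the interaction was −0.44 (adjusted p = 0.314). Macrophages also transcribe this gene, and the summed macrophage and leukocyte markers lay between 53.3 and 155 CPM in LacZ CTRL and between 49.4 and 169 CPM in LacZ with IL-1β. Of the 6, *Csf1r* rose with IL-1β, from a mean of 6.18 to 11.2 CPM. The part of such cells in the result was not tested.

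*Cd40* (ENSMUSG00000017652; chromosome 2, 165055627 to 165072948, plus strand) encodes the receptor for CD40 ligand, a TRAF-coupled co-stimulatory receptor of antigen-presenting cells. It was low, with 25 to 506 counts in a library. The 4 LacZ CTRL replicates were at 0.759, 1.14, 1.46 and 1.80 CPM. With IL-1β they were at 5.10, 6.11, 9.22 and 12.6 CPM, every one above CTRL. The log2 fold change was 2.69 (SE 0.35, adjusted p = 0.000585). It was 2.03 with TNFα (adjusted p = 0.00156), 1.97 with TGFβ (0.00161) and 1.75 with bFGF (0.00652), with no overlap with CTRL in any of them. Only the bFGF call was lost in a fit without 1 replicate number, which was replicate 3 (adjusted p = 0.0742).

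In iCre fibroblasts *Cd40* was called with TGFβ alone, at 2.18 (SE 0.50, adjusted p = 0.00566), although replicate 2 with TGFβ lay within the iCre CTRL range. With bFGF it was called with the block (0.86, adjusted p = 0.038) but not with GC correction and the block (0.82, 0.0503). With IL-1β the iCre replicates were at 3.52, 0.964, 2.20 and 2.996 CPM and with TNFα at 3.33, 0.761, 1.46 and 2.497 CPM, in both cases below all LacZ replicates with that ligand. Replicate 2 was the lowest iCre replicate with every ligand and in CTRL. The log2 fold changes over iCre CTRL were 1.15 (adjusted p = 0.0744) and 0.90 (0.16), and with the block the adjusted p was 1.14e-05 and 0.0386. With GC correction and the block the TNFα value was 0.66 (adjusted p = 0.07), and DESeq2 called the IL-1β rise (0.023). Deletion lowered *Cd40* by 1.78 with IL-1β and by 1.37 with TNFα (adjusted p = 0.0124 and 0.0363). Without replicate 3 or 4 these calls were lost, with adjusted p of 0.101 and 0.0615 for IL-1β and of 0.211 and 0.136 for TNFα. The IL-1β interaction of −1.55 had an adjusted p of 0.103 (0.0115 with the block), and the TNFα interaction of −1.15 had one of 0.195. Antigen-presenting cells also transcribe *Cd40*, and the summed macrophage and leukocyte markers lay between 34.9 and 114 CPM in iCre and between 49.4 and 169 CPM in LacZ with IL-1β. With TNFα they lay between 35.0 and 121 CPM in iCre and between 42.9 and 164 CPM in LacZ, and the part of such cells in the result was not tested.

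*Tnfrsf9* (ENSMUSG00000028965; chromosome 4, 150914562 to 150946102, plus strand) encodes CD137, a TRAF-coupled co-stimulatory receptor best known on activated T cells. Since it had the largest response to IL-1β of the 10 members, a RefSeq promoter of the gene is shown (GRCm38.p6, 250 bases before to 50 after the start). It is that of the downstream start, at chr4:150927749-150928048 on the plus strand, the only promoter of this gene that held matches. The capitals mark 11 bases covered by overlapping matches to the NF-κB consensus, beginning 43 bases before the start, and the AP-1 motif TGANTCA, beginning 15 bases before it.
Tnfrsf9: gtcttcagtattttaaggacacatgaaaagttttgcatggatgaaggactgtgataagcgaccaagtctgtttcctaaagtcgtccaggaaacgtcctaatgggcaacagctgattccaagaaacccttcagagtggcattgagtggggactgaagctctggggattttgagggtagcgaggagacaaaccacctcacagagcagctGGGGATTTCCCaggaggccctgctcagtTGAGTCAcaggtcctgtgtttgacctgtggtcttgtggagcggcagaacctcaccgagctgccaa
Both strands were searched. The other RefSeq promoter of *Tnfrsf9*, upstream at chr4:150919905-150920204, held neither motif, and which start the fibroblasts use was not tested. RefSeq promoters were held for 7 of the 10 members (8 promoters), and of these only this one had an NF-κB match and only this one and that of *Fas* had an AP-1 match. Among all 32851 promoters of the same length, 8.46% held the NF-κB consensus, 7.81% the AP-1 motif and 0.539% both. A match describes letters and not binding.

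In LacZ CTRL *Tnfrsf9* was at 0.156, 3.75, 1.14 and 1.63 CPM, with replicate 2 highest and replicate 1 lowest at 7 counts. With IL-1β it was at 28.6, 30.0, 22.4 and 24.98 CPM. The groups were far apart, with a log2 fold change of 4.01 (SE 0.60, adjusted p = 0.00136), the largest of any member with this ligand. With TNFα the LacZ replicates were at 7.77, 27.9, 10.9 and 9.62 CPM, and replicate 2 again stood apart. The log2 fold change was 3.08 (SE 0.72, adjusted p = 0.0136, or 2.19e-09 with the block). It was 3.04 without replicate 3 (adjusted p = 0.0838) and 3.22 without replicate 4 (0.0688). bFGF and TGFβ gave no call in either kind of fibroblast, except for bFGF in LacZ with the block (0.83, adjusted p = 0.0324; 0.598 without it, and 0.0533 with GC correction and the block). The gene *Camta1* overlaps *Tnfrsf9* on the opposite strand, with group means between 5.93 and 8.22 CPM. The strand setting of the counting is not given in the sources used here, so reads shared by these genes cannot be told apart.

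With IL-1β *Tnfrsf9* rose less in iCre than in LacZ fibroblasts. The iCre replicates were at 5.46, 8.45, 6.58 and 8.96 CPM, all above iCre CTRL (2.29, 4.59, 2.05 and 2.09 CPM) and all below LacZ with IL-1β. The rise over iCre CTRL was 1.44 (SE 0.29, adjusted p = 0.0079) and was lost without replicate 3 or 4 (0.0567 and 0.0659) and in the fit of all 40 libraries (0.054). The deletion contrast was −1.86 (SE 0.17, adjusted p = 0.000117), in the same direction in 4 of 4 replicate numbers. The interaction was −2.58 (SE 0.71, adjusted p = 0.0348), so the rise was smaller in iCre by that amount on the log2 scale. That call depended on the setting, at 0.0547 after GC correction, 0.00101 with GC correction and the block, and 0.0644, 0.219 and 0.151 without replicate 1, 3 or 4. With TNFα the iCre replicates were at 7.86, 8.47, 8.10 and 6.94 CPM, which overlapped LacZ, and the rise over iCre CTRL was 1.54 (adjusted p = 0.00228). The deletion contrast of −0.82 there (adjusted p = 0.125) and the interaction of −1.54 (0.238) were not called. The lymphocyte markers were at most 0.187 CPM in sum in any library.

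*Tnfrsf12a* (ENSMUSG00000023905; chromosome 17, 23675445 to 23677468, minus strand) encodes FN14, the small TRAF-coupled receptor for TWEAK that growth factors are known to induce. The LacZ CTRL replicates were at 9.33, 15.9, 7.20 and 9.65 CPM. With TGFβ they were at 175, 90.7, 126 and 109 CPM. The lowest of these lay far above the highest CTRL replicate. The log2 fold change was 3.60 (SE 0.28, adjusted p = 7.52e-06), and in iCre fibroblasts it was 3.33 (SE 0.28, adjusted p = 8.38e-06). In LacZ bFGF gave 2.24 (adjusted p = 0.00454), IL-1β 1.76 (0.000897) and TNFα 1.10 (0.00846). Fits without replicate 3 or 4 lost the bFGF call (0.0585 and 0.0574), and fits without replicate 1 or 4 the TNFα call (0.0617 and 0.0742). With the block the adjusted p was 3.28e-05 for bFGF and 1.72e-06 for TNFα.

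With TNFα, deletion raised *Tnfrsf12a*, as it did *Tnfrsf21*. In LacZ with TNFα it was at 26.9, 20.7, 16.8 and 25.4 CPM, and in iCre with TNFα at 67.3, 71.5, 93.3 and 123 CPM, with no overlap. The deletion contrast was 2.001 (SE 0.21, adjusted p = 0.000243), and the rise over CTRL was 2.25 in iCre (adjusted p = 0.000331). The interaction was 1.14 (SE 0.37, adjusted p = 0.0484, or 0.0107 with the block). It lost its call after GC correction (0.93, adjusted p = 0.135), with RLE normalization (0.0602), in the fit of all 40 libraries (0.127) and without any 1 replicate number (0.0661 to 0.195), and the GC-corrected fit with the block gave 0.0332. With IL-1β the LacZ replicates were at 42.0, 25.4, 30.5 and 42.7 CPM and the iCre replicates at 66.3, 47.8, 57.6 and 105 CPM, again without overlap. There the deletion contrast was 0.96 (adjusted p = 0.0249), 0.73 after GC correction (0.105, or 3.85e-05 with the block), and it was lost without replicate 1, 3 or 4 (0.0558, 0.111 and 0.0513). Its transcript has a GC content of 57.9%, among the highest of the members. In CTRL the gene was at 13.3, 23.0, 15.0 and 25.1 CPM in iCre, a contrast of 0.85 that was not called (adjusted p = 0.207, or 0.000182 with the block). With bFGF in iCre the difference of 1.28 had an adjusted p of 0.127 in edgeR, 0.00478 with the block and 0.022 in DESeq2.

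*Fas* (ENSMUSG00000024778; chromosome 19, 34290666 to 34327772, plus strand) encodes the death-domain receptor for Fas ligand, which can trigger apoptosis through FADD and caspase-8. It was the member whose interaction with deletion was called for both IL-1β and TNFα. Its RefSeq promoter, at chr19:34290409-34290708 on the plus strand, is shown beside that of *Tnfrsf9* as the other member promoter with a match, and the capitals mark an AP-1 motif that begins 211 bases before the start.
Fas: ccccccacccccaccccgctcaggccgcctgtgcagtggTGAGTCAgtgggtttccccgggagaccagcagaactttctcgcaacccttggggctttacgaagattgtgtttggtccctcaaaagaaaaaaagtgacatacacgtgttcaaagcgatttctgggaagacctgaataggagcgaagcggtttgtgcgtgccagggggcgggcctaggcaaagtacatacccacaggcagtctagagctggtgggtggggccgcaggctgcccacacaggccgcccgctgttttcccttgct
No NF-κB consensus was found in these 300 bases, which says nothing about other windows. An annotated gene, *Gm27818*, lies within *Fas* on the same strand, and its reads were not analysed here.

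In LacZ CTRL *Fas* was at 42.1, 28.1, 36.6 and 39.4 CPM. With TNFα it was at 206, 238, 226 and 199 CPM, its highest group. The log2 fold change was 2.57 (SE 0.13, adjusted p = 3.42e-06). With IL-1β it was at 179, 132, 153 and 162 CPM, all between the CTRL and the TNFα replicates, with a log2 fold change of 2.11 (SE 0.15, adjusted p = 1.3e-05). The difference of IL-1β from TNFα was −0.48 (adjusted p = 0.0169), which was not called without replicate 3 or 4 (0.153 and 0.0663) or in the fit of all 40 libraries (0.3). TGFβ raised *Fas* by 0.65 (SE 0.23, adjusted p = 0.044), to 65.2, 32.0, 63.5 and 66.5 CPM. Replicate 2 was far below the other 3, the groups overlapped, and the call was lost without replicate 1, 3 or 4 (0.112, 0.171 and 0.149), in the fit of all 40 libraries (0.0502) and after GC correction (0.0533). bFGF gave −0.42 (adjusted p = 0.173, or 0.00156 with the block). In iCre bFGF gave −0.39, which was called with the block (adjusted p = 0.0243) and not by DESeq2. TGFβ in iCre gave 0.71, with an adjusted p of 0.0685 in edgeR, 3.7e-05 with the block, 0.0321 after GC correction and 0.0426 in DESeq2.

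In iCre fibroblasts *Fas* stayed far below these levels. With TNFα it was at 87.7, 44.8, 61.5 and 38.7 CPM and with IL-1β at 73.6, 38.2, 56.8 and 64.7 CPM. The highest of these 8 values lay below the lowest LacZ replicate with either ligand, 132 CPM. Deletion lowered *Fas* by 1.88 with TNFα (SE 0.23, adjusted p = 0.000467) and by 1.44 with IL-1β (SE 0.19, adjusted p = 0.000742), in 4 of 4 replicate numbers each. The interaction was −1.68 with TNFα (SE 0.34, adjusted p = 0.00315) and −1.23 with IL-1β (SE 0.31, adjusted p = 0.0233). After GC correction these interactions were −1.50 (adjusted p = 0.00959) and −1.03 (0.087), and with GC correction and the block the adjusted p was 0.000644 and 0.000102. The TNFα interaction was lost without replicate 3 (0.0629) and the IL-1β interaction without replicate 1, 3 or 4 (0.0835, 0.222 and 0.134). *Fas* rose over iCre CTRL, with overlap between the groups, by 0.90 with TNFα (adjusted p = 0.043) and 0.89 with IL-1β (0.0371). Without replicate 1, 3 or 4 the adjusted p of these rises was 0.109, 0.124 and 0.0669 with TNFα and 0.14, 0.104 and 0.156 with IL-1β. In CTRL, where iCre was at 36.8, 18.4, 38.8 and 33.5 CPM, the deletion contrast was −0.21 (adjusted p = 0.695).

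*Tnfrsf10b* (ENSMUSG00000022074; chromosome 14, 69767472 to 69784411, plus strand) encodes the mouse death receptor for TRAIL. In LacZ CTRL it was at 52.8, 49.2, 56.8 and 56.6 CPM, with TGFβ at 114, 89.1, 110 and 103 CPM, and with TNFα at 107, 93.4, 97.0 and 91.4 CPM. Both ligands put every replicate above CTRL. The log2 fold change was 0.97 with TGFβ (SE 0.10, adjusted p = 5.63e-05), 0.85 with TNFα (SE 0.08, adjusted p = 0.000111) and 0.52 with IL-1β (SE 0.08, adjusted p = 0.00177). In iCre it was 0.68 with TGFβ (adjusted p = 0.000419) and 0.60 with TNFα (0.00063), whereas IL-1β gave 0.20 (0.219, or 0.0279 with the block, and 0.344 with GC correction and the block). bFGF gave 0.29 in LacZ (adjusted p = 0.0851, or 0.00685 with the block). The deletion contrasts with TGFβ, IL-1β and TNFα lay between −0.03 and 0.05, with standard errors of 0.08 to 0.11 and no call. In CTRL the iCre replicates (65.5, 62.9, 72.6 and 67.3 CPM) were all above the LacZ replicates, a contrast of 0.30 (adjusted p = 0.143, or 0.00268 with the block). The interaction with IL-1β was −0.33 (adjusted p = 0.13, or 0.0154 with the block). IL-1β gave a lower level than TNFα in LacZ, by −0.34 (adjusted p = 0.0153), which was lost without replicate 1, 3 or 4 (0.0771, 0.108 and 0.0589).

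*Tnfrsf21* (ENSMUSG00000023915; chromosome 17, 43016555 to 43089189, plus strand) encodes death receptor 6, an orphan death-domain receptor studied in axons and lymphocytes. It was the member with opposite calls for IL-1β and TNFα. In LacZ CTRL it was at 3.37, 10.6, 6.42 and 6.28 CPM. With IL-1β it was at 25.5, 16.4, 26.3 and 33.2 CPM and with TNFα at 1.90, 2.27, 2.87 and 3.18 CPM. IL-1β put all 4 replicates above CTRL and TNFα put all 4 below it. The log2 fold changes were 1.94 (SE 0.31, adjusted p = 0.00184) and −1.38 (SE 0.32, adjusted p = 0.0124), and the direct contrast of IL-1β with TNFα was 3.31 (SE 0.24, adjusted p = 2.21e-05). The fall with TNFα was not called without replicate 3 or 4 (0.0687 and 0.0512), and with the block its adjusted p was 8.4e-06. bFGF raised *Tnfrsf21* by 1.52 in LacZ (adjusted p = 0.0126) and by 1.399 in iCre (0.0218). These bFGF calls were lost without replicate 3 or 4 in LacZ (0.121 and 0.0899) and without replicate 1, 3 or 4 in iCre (0.15, 0.196 and 0.138).

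In iCre fibroblasts the ranges of *Tnfrsf21* with these ligands overlapped. It was at 10.96, 7.31, 7.47 and 14.3 CPM with IL-1β and at 7.88, 9.37, 11.2 and 14.6 CPM with TNFα. Deletion lowered it by 1.36 with IL-1β (SE 0.26, adjusted p = 0.00542) and raised it by 2.09 with TNFα (SE 0.24, adjusted p = 0.000308), each without overlap between viruses. The IL-1β contrast was not called without replicate 3 (0.0565). The TNFα interaction of 2.12 (SE 0.42, adjusted p = 0.00268) was called with GC correction too (1.98, adjusted p = 0.00669) and in every fit that left out a replicate number. The IL-1β interaction of −1.32 had an adjusted p of 0.0819 (0.0189 with the block). The rise over iCre CTRL with TNFα was 0.75 (adjusted p = 0.0409), and it was not called with RLE normalization (0.0505), with all 40 libraries (0.145), after GC correction (0.127) or without replicate 3 or 4 (0.182 and 0.162). With IL-1β the difference was 0.63, with an adjusted p of 0.139, or 5.23e-06 with the block. In CTRL the groups overlapped, at 6.67 ± 2.98 and 6.55 ± 1.53 CPM (SD, n = 4).

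*Ngfr* (ENSMUSG00000000120; chromosome 11, 95568818 to 95587735, minus strand) encodes p75, a death-domain receptor for neurotrophins and a common marker of glia. It had the lowest level of the 10. In LacZ CTRL it was at 0.201, 0.505, 0.426 and 0.378 CPM, from 9 to 24 counts, and with TNFα at 1.59, 0.804, 1.77 and 0.833 CPM, from 22 to 64 counts. All 4 replicates with TNFα were above all CTRL replicates, with a log2 fold change of 1.73 (SE 0.39, adjusted p = 0.0117, or 0.000571 with the block). The call was lost without replicate 1 or 3 (0.0595 and 0.0837). No other ligand gave a call in LacZ, and in iCre the difference of −1.57 with bFGF had an adjusted p of 0.154 in edgeR, 0.0351 with the block and 0.0421 in DESeq2. In iCre with TNFα it was at 0.458, 0.214, 0.253 and 0.389 CPM, below every LacZ replicate with TNFα, and the deletion contrast was −1.91 (SE 0.41, adjusted p = 0.00627, or 0.0751 without replicate 3). The interaction was −2.36 (SE 0.60, adjusted p = 0.0128), and it was lost without replicate 1, 3 or 4 (0.0588, 0.108 and 0.0716). IL-1β lay below TNFα in LacZ by −1.84 (adjusted p = 0.0259), a call lost without replicate 1, 3 or 4 (0.103, 0.106 and 0.0929). The 4 Schwann cell markers summed to between 10.4 and 15.9 CPM in LacZ CTRL, between 4.30 and 7.09 CPM in LacZ TNFα and between 2.57 and 8.16 CPM in iCre TNFα, with *Sox10* at most at 0.184 CPM, and their part in the result was not tested.

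*Tnfrsf11b* (ENSMUSG00000063727; chromosome 15, 54250619 to 54278484, minus strand) encodes osteoprotegerin, the soluble decoy receptor that binds RANKL and TRAIL. Its response to TGFβ was the largest of any member to any ligand. In LacZ CTRL it was at 6.03, 4.66, 7.82 and 9.33 CPM and with TGFβ at 384, 184, 281 and 291 CPM. Each replicate with TGFβ was far above each CTRL replicate, and the log2 fold change was 5.37 (SE 0.30, adjusted p = 1.63e-06). In iCre CTRL it was at 5.69, 1.90, 7.02 and 7.37 CPM and with TGFβ at 314, 131, 318 and 292 CPM. That gave a log2 fold change of 5.60 (SE 0.45, adjusted p = 6.85e-06), with replicate 2 far below the other 3. The deletion contrast with TGFβ was −0.14 (adjusted p = 0.846) and the interaction was 0.20 (SE 0.51, adjusted p = 0.959).

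The other ligands moved *Tnfrsf11b* far less. TNFα raised it by 1.49 in LacZ (SE 0.36, adjusted p = 0.015), to 17.9, 8.35, 21.1 and 30.7 CPM, where replicate 2 fell within the CTRL range. That call was lost without replicate 1 or 3 (0.0756 and 0.0838), and with the block the adjusted p was 1.22e-08. In iCre the log2 fold change with TNFα was 1.25 (adjusted p = 0.0516, or 9.61e-05 with the block). With bFGF it was 1.17 in LacZ (adjusted p = 0.0921, or 0.00116 with the block) and 1.20 in iCre (0.324, or 0.000839 with the block). IL-1β gave 0.19 in LacZ (adjusted p = 0.76) and 0.78 in iCre (0.377, or 5.7e-06 with the block). The deletion contrast with TNFα was −0.59 (adjusted p = 0.3, or 0.00691 with the block, and 0.129 with the block and GC correction). Replicate 2 was the lowest replicate of *Tnfrsf11b* in all 10 groups.

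Set side by side, the contrasts of iCre with LacZ fibroblasts asked whether the receptors differed between viruses at a given ligand. Cre and TAK1 deletion go together in them, so their effects cannot be told apart. In CTRL no member was called (2 at an unadjusted p under 0.05), where 0.0278% of all genes were higher and 0.0476% lower. DESeq2 called 2, and the block called 2 (*Tnfrsf12a* and *Tnfrsf10b*, higher) beside 14.5% of all genes in either direction. With bFGF no member was called (1 at an unadjusted p under 0.05), and 0% of all genes were higher and 0% lower. There DESeq2 called 1 and the block 4 (*Tnfrsf10b* higher; *Tnfrsf1a*, *Cd40* and *Tnfrsf11b* lower) beside 13.9% of all genes. With TGFβ no member was called either (2 at an unadjusted p under 0.05; none by DESeq2), against 2.51% of all genes higher and 5.87% lower, and the block called *Tnfrsf1b* and *Tnfrsf12a* higher beside 20.8% of all genes. With GC correction and the block these were 0.13 (adjusted p = 0.536) and 0.29 (0.156), and neither was called. With IL-1β *Tnfrsf12a* was higher and *Cd40*, *Tnfrsf9*, *Fas* and *Tnfrsf21* were lower, where 7.14% of all genes were higher and 8.98% lower. With TNFα *Tnfrsf12a* and *Tnfrsf21* were higher and *Cd40*, *Fas* and *Ngfr* were lower, where 14.8% of all genes were higher and 12.6% lower. Other markers moved with these contrasts. Of the 10 fibroblast markers 3 were lower in iCre with IL-1β, and with TNFα 5 were lower and 2 higher, with sums of 25795 to 34598 CPM in LacZ TNFα and 15351 to 23387 CPM in iCre TNFα. Of the 4 pericyte and smooth muscle markers 1 was higher in iCre with IL-1β and 2 with TNFα, with sums of 62.0 to 356 CPM in LacZ TNFα and 273 to 1075 CPM in iCre TNFα. The macrophage marker *Cd68* was higher in iCre with TNFα and the cardiomyocyte marker *Tnnt2* higher with IL-1β (8.63 against 1.01 CPM). The part of such cells in the results was not tested. *Cd40*, *Fas* and *Tnfrsf12a* were called in the same direction with both ligands, and *Tnfrsf21* in opposite directions.

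**Figure D3:**
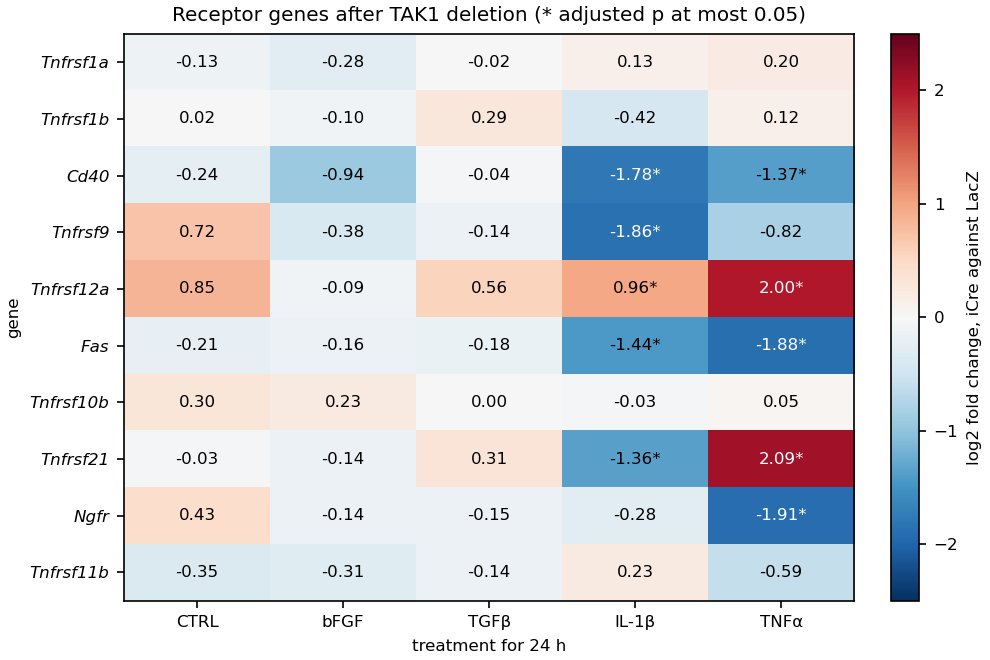
Heat map of the log2 fold change of iCre against LacZ fibroblasts, printed in each cell, for each receptor gene (rows) in CTRL and with each ligand (columns), with red for higher and blue for lower in iCre and a star where the adjusted p is at most 0.05. No cell has a star in CTRL, with bFGF or with TGFβ, and *Tnfrsf21* moves from −1.36 with IL-1β to 2.09 with TNFα.

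The interaction of ligand and deletion tested over 16 libraries whether the response itself differed. For TNFα, *Tnfrsf12a* and *Tnfrsf21* had a higher and *Fas* and *Ngfr* a lower response in iCre, where 8.38% of all genes were higher and 7.7% lower. For IL-1β, *Tnfrsf9* and *Fas* had a lower response and none a higher one, where 2.76% of all genes were higher and 4.95% lower. The block added *Cd40*, *Tnfrsf10b* and *Tnfrsf21* to the IL-1β interaction, which made 5 lower beside 16.9% of all genes. DESeq2 also called 5, and the GC-corrected fit without the block called 0. For TGFβ no member was called (1 at an unadjusted p under 0.05; none with the block or by DESeq2, which gave *Ngfr* no adjusted p), with 0.893% of all genes higher and 3.62% lower. For bFGF no member was called (none at an unadjusted p under 0.05 and none by DESeq2 or with the block), with 0% higher and 0% lower.

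**Figure D4:**
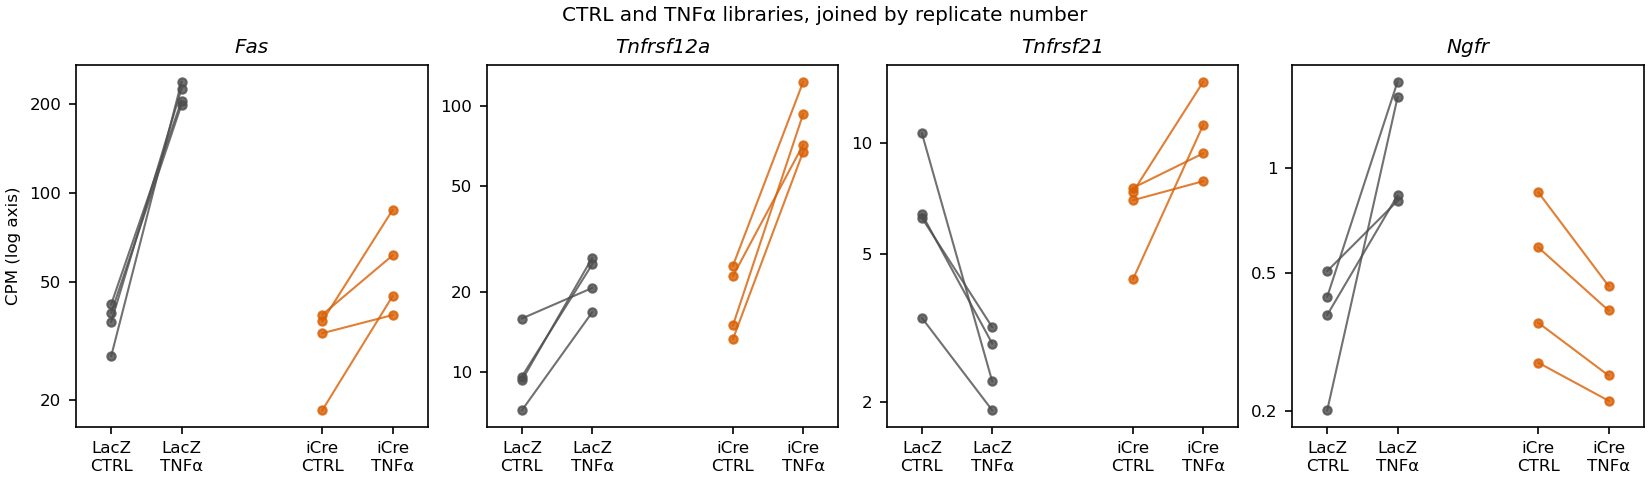
CPM on a log axis of the 4 genes whose response to TNFα differed between LacZ (grey) and iCre (orange) fibroblasts, with a point for each CTRL and TNFα library and a line that joins libraries of the same replicate number. With TNFα all LacZ replicates of *Fas* (199 to 238 CPM) and *Ngfr* lie above all iCre replicates, and those of *Tnfrsf12a* and *Tnfrsf21* (1.90 to 3.18 CPM) lie below them.

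IL-1β and TNFα were compared directly in LacZ fibroblasts, since both are inflammatory ligands that signal through TAK1. *Tnfrsf1b* and *Tnfrsf21* were higher with IL-1β, and *Fas*, *Tnfrsf10b* and *Ngfr* were higher with TNFα. Among all genes tested 4.84% were higher with IL-1β and 4.78% lower. The other 5 members missed the threshold, with adjusted p from 0.064 for *Tnfrsf12a* to 0.26 for *Cd40*. With the block all 10 members were called (6 higher and 4 lower with IL-1β), beside 24.2% of all genes, and DESeq2 called 8. The pericyte markers *Kcnj8* and *Abcc9* and the fibroblast markers *Col1a1*, *Col3a1* and *Dcn* were also higher with IL-1β, no marker was lower, and the part of such cells was not tested. The doses differ (15 and 10 ng/ml), so these contrasts compare the ligands as given.

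Of 18 other receptor genes of the superfamily 17 were tested. Values of this and the following gene lists are given without GC correction. The GC trend differed between iCre and LacZ with TGFβ, IL-1β and TNFα, and what the correction would change in these values is not reported here. In LacZ fibroblasts TGFβ raised 7 and lowered 3 (17.5% of all genes rose and 19.3% fell), IL-1β raised 4 and lowered 2 (11.1% and 9.55%), bFGF raised 4 (7% and 4.64%) and TNFα raised 3 (10.9% and 10.4%). With the block bFGF raised 5 and lowered 2, beside 27.3% of all genes in either direction. The block also gave 7 higher and 1 lower with TNFα, beside 35.5%, and 5 higher and 4 lower with IL-1β, beside 33.5%. *Relt*, a receptor of lymphoid and other tissues, rose with TGFβ by 3.61 on the log2 scale, from 2.06 ± 0.406 to 24.9 ± 2.62 CPM (SD, n = 4; adjusted p = 1e-06). *Tnfrsf23*, a mouse decoy receptor for TRAIL, rose with each of the 4 ligands in LacZ, from 26.8 ± 6.18 CPM to 128 ± 24.4 CPM with TGFβ and 84.3 ± 17.5 CPM with IL-1β. It lies beside close paralogs, *Tnfrsf22* among them, so reads could be split between them. *Tnfrsf14*, the receptor for LIGHT, had a lower TNFα response in iCre. It was at 18.8 ± 0.813 CPM with TNFα in LacZ, against 6.66 ± 0.935 CPM in LacZ CTRL and 5.51 ± 0.884 CPM with TNFα in iCre, and its interaction was −1.62 (adjusted p = 4.4e-05). *Eda2r*, the receptor for ectodysplasin A2, was lower in iCre than in LacZ with TGFβ (−0.98) and with IL-1β (−0.62; adjusted p = 0.0209 and 0.00152). It was also lower in iCre with TNFα, at 78.5 against 138.5 CPM, and its TNFα interaction was −0.73 (adjusted p = 0.00536). *Tnfrsf22* and *Tnfrsf23* were higher in iCre with TNFα, by 1.28 and 0.87 (adjusted p = 0.00114 and 0.0212), which made 2 of the 17 higher and 2 lower there, where 14.8% of all genes were higher and 12.6% lower. With the block 4 were higher and 3 lower, beside 32.2% of all genes in either direction. In the TNFα interaction *Tnfrsf22* was higher (1.03, adjusted p = 0.00556) and *Tnfrsf14* and *Eda2r* lower, where 8.38% of all genes were higher and 7.7% lower.

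Of the ligands of the family 17 of 18 genes were tested. In LacZ fibroblasts TNFα raised 7 and lowered 1 (10.9% of all genes rose and 10.4% fell), IL-1β raised 5 and lowered 1 (11.1% and 9.55%), TGFβ raised 3 and lowered 6 (17.5% and 19.3%), and bFGF raised 1 (7% and 4.64%). With the block bFGF raised 5 and lowered 1, beside 27.3% of all genes in either direction. *Tnfsf18*, the ligand of GITR, rose from 0.552 ± 0.346 CPM in CTRL to 36.9 ± 12.4 CPM with TGFβ. *Tnfsf11*, which encodes the osteoprotegerin ligand RANKL, rose with IL-1β from 1.91 ± 2.15 to 13.7 ± 4.22 CPM (log2 fold change 2.87, adjusted p = 0.0101). *Tnfsf10*, which encodes TRAIL, fell with TGFβ by 2.83 on the log2 scale (adjusted p = 0.00185) and with TNFα stood at 0.446 ± 0.274 CPM in iCre, against 8.45 ± 4.22 CPM in LacZ. *Cd70* had no read in any LacZ CTRL library and reached 1.20 ± 0.572 CPM with TNFα in LacZ. With TNFα deletion lowered 6 ligand genes and raised 1, where 12.6% of all genes were lower and 14.8% higher.

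*Bdnf*, which encodes a neurotrophin that binds p75, rose with all 4 ligands in LacZ, most with TGFβ, from 31.6 ± 5.84 to 198 ± 39.9 CPM.

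Adaptors and effectors downstream of the receptors included 9 of 14 genes that rose with TNFα in LacZ, where 10.9% of all genes rose, and none fell. In iCre TNFα also raised 9, where 14.7% rose. *Tnfaip3*, the A20 enzyme that limits NF-κB, rose from 10.9 ± 3.03 to 271 ± 52.7 CPM with TNFα and to 123 ± 12.2 CPM with IL-1β. *Birc3*, a ubiquitin ligase of the TNFR1 complex, rose from 20.5 ± 1.83 to 183 ± 19.1 CPM with TNFα and 97.0 ± 13.8 CPM with IL-1β. *Traf1*, a TRAF adaptor, rose with TNFα in both viruses and was higher in iCre, with 20.3 ± 4.75 against 8.23 ± 4.002 CPM. The TNFα interaction was −2.16 for *Tnfaip3*, −1.75 for *Birc2* and −1.398 for *Birc3* (adjusted p = 0.00126, 0.00117 and 0.000102). In all 4 of the 14 genes were lower there and 2 higher, *Traf5* and *Casp8*, where 7.7% of all genes were lower and 8.38% higher. In the IL-1β interaction 3 of the 14 genes were lower and 1 higher (4.95% and 2.76% of all genes), and with the block 4 were lower and 2 higher beside 16.9% of all genes in either direction.

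Of the 5 genes for receptor shedding, by which membrane TNF receptors are released as soluble forms, TNFα raised *Adam17* and *Rhbdf2* in LacZ and lowered none, where 10.9% of all genes rose, and with the block 4 were higher and 1 lower, beside 35.5% in either direction. *Adam17*, the sheddase of TNFR1 and TNFR2, went from 119 ± 13.8 to 309 ± 21.3 CPM in LacZ and from 125 ± 13.98 to 154 ± 10.3 CPM in iCre, an interaction of −1.06 (adjusted p = 8.68e-05). *Rhbdf2*, an iRhom that brings ADAM17 to the surface, rose with IL-1β from 11.5 ± 0.516 to 34.5 ± 3.95 CPM. *Timp3*, the tissue inhibitor of ADAM17, rose with TGFβ by 2.40 (adjusted p = 0.00298) and fell with IL-1β by 2.19 (0.0141) on the log2 scale.

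Group means over the 10 groups, as log2(mean CPM + 1), were correlated with those of every gene whose mean reached 1 CPM in some group. This is a description over n = 10 groups that share controls, libraries and depth. Nearest to *Tnfrsf9* were *Gm16685* (Pearson r = 0.981), *Kcnq5* (0.973) and *Nod1* (0.969), and nearest to *Fas* were *Dusp16* (0.963), *Clip1* (0.960) and *Atp11a* (0.954). For *Tnfrsf12a* they were *Plk3* (0.991), *Coro1c* (0.987) and *Pvr* (0.984), and for *Tnfrsf11b* they were *Psph*, *Cox6a2* and *Tbc1d1* (each 0.987). The 3 nearest genes were *Egln3*, *Ece1* and *Rai14* for *Tnfrsf1b* (0.972 to 0.925), *Spata5*, *Uxs1* and *Ak4* for *Cd40* (0.953 to 0.907), *Snx12*, *Wdr3* and *Tspan31* for *Tnfrsf10b* (0.966 to 0.961) and *Spint2*, *Tfcp2l1* and *Zbtb5* for *Ngfr* (0.952 to 0.946). They were least alike for *Tnfrsf1a* (*Tmem216*, *Tgm1* and *Gm49335*, 0.921 to 0.882) and *Tnfrsf21* (*Por*, *Sgms1* and *Bbs12*, 0.920 to 0.880). Among the members themselves *Fas* and *Tnfrsf9* were most alike (0.8292), followed by *Tnfrsf12a* with *Tnfrsf11b* (0.755).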

How the data were processed

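RNA sequencing libraries (polyadenylated RNA) of 40 fibroblast cultures were used, with 10 groups of 4. The authors deposited gene-level raw counts, made with STAR alignment to mm10 (GRCm38) and HTSeq 0.10.0, per the study's methods and the submitters' processing notes. The annotation release and strand setting are not given in the sources used here, and the library kit is named differently in the methods and the labels. Coordinates, exon lengths and GC content came from GENCODE M21 (GRCm38), which held 52133 of 55414 identifiers and 99.59% of counts. Library totals ranged from 25360947 to 66160732 (median 36183962), counting error alone limits genes with few counts, and no pair of libraries was identical. Samples were grouped by their labels. The replicates are described as separate biological samples.

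CPM (by TMM library size) and RPKM (CPM per kilobase of exon) were computed here from the deposited counts. Genes with at least 10 counts over the 40 libraries (25210) were tested with edgeR 4.0.16 in R 4.3.3, by the quasi-likelihood test with TMM normalization and Benjamini-Hochberg adjustment, on 8 libraries per comparison and 16 per interaction, at an adjusted p of at most 0.05. DESeq2 1.42.0, the tool of the study, served as an alternative, beside RLE normalization, other filters, all 40 libraries in 1 fit, each replicate number left out, a GC correction (24970 genes with a GC value) and the replicate number as a block. Same-numbered libraries deviated together from their group means in 56 of 56 pairs (r from 0.360 to 0.874 over 10774 genes whose mean reached 5 CPM), so the numbers were taken to pair the samples. Library numbers were 31 to 40 for replicate 1 and 51 to 80 for replicates 2 to 4. The fits were tested on simulated data before use. Figures were drawn with matplotlib 3.10.9.

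The members, the pathway and marker lists and the tests were chosen with earlier results of these data known. The text names all 10 members, *Map3k7*, at most 3 called genes per pathway list and comparison (the largest log2 fold changes where the mean reached 1 CPM in a group) and the 3 genes most correlated with each member. *Camta1*, *Gm27818* and markers are named for their overlap, absence or calls, and *Traf5* and *Casp8* after their values were seen. Some results of the pathway and marker lists are not reported here.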

Additional observations from a re-analysis of the deposited data

Results flagged for a closer look

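In 9 of 100 sets of 4 replicates (10 genes in 10 groups), 1 replicate lay far from the other 3, where chance alone marks about 1 set in 20. Replicate 2 was the distant one in 7 of the 9. *Tnfrsf1a* in LacZ TGFβ was at 203 CPM in replicate 2 and between 254 and 263 CPM in the others. *Tnfrsf1b* replicate 2 was at 78.6 CPM in LacZ CTRL, against 47.1 to 50.1 CPM, and at 57.7 CPM in LacZ TGFβ, against 81.9 to 84.9 CPM. *Tnfrsf9* replicate 2 was at 27.9 CPM in LacZ TNFα, against 7.77 to 10.9 CPM, and at 4.59 CPM in iCre CTRL, against 2.05 to 2.29 CPM. *Fas* in LacZ TGFβ was at 32.0 CPM in replicate 2, against 63.5 to 66.5 CPM. *Tnfrsf11b* in iCre TGFβ was at 131 CPM in replicate 2, against 292 to 318 CPM. The remaining pair were *Tnfrsf21* in iCre CTRL, at 4.29 CPM in replicate 3 against 7.004 to 7.56 CPM, and *Ngfr* in LacZ bFGF, at 0.132 CPM in replicate 1 against 0.201 to 0.209 CPM. The cause was not tested.

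The response to a ligand differed between iCre and LacZ fibroblasts in 6 of 40 interaction tests. With TNFα the log2 difference was 2.12 for *Tnfrsf21* (adjusted p = 0.00268), 1.14 for *Tnfrsf12a* (0.0484), −1.68 for *Fas* (0.00315) and −2.36 for *Ngfr* (0.0128). With IL-1β it was −2.58 for *Tnfrsf9* (adjusted p = 0.0348) and −1.23 for *Fas* (0.0233).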

How the results depend on the processing

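Of the 64 calls made for members, none changed direction under any of the 12 alternatives. Calls lost were 0 with DESeq2, either other filter, the block or the block with GC correction, 2 with RLE normalization, 5 with all 40 libraries in 1 fit and 7 with GC correction. Without replicate 1, 2, 3 or 4 they were 17, 1, 29 and 24, where fewer libraries were tested. Without replicate 2, 18 calls were gained.

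The replicate block, which pairs libraries of the same number, gained 40 calls, of which 11 were not called with GC correction and the block. It moved the number of members called from 4 to 9 for bFGF in LacZ, 2 to 7 for bFGF in iCre, 5 to 9 for IL-1β in iCre, 2 to 5 for the IL-1β interaction and 5 to 10 for IL-1β against TNFα. For iCre against LacZ it moved the number from 0 to 2 in CTRL, 0 to 4 with bFGF and 0 to 2 with TGFβ, and no other count moved by over 1.5 times. With GC correction and the block these were 8, 6, 9, 5 and 10, and 2, 4 and 0. GC correction alone gave 0 for the IL-1β interaction. DESeq2 gave 4 for bFGF in iCre, 2 and 1 for deletion in CTRL and with bFGF, 5 for the IL-1β interaction and 8 for IL-1β against TNFα.

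Leaving out 1 replicate number gave 0 to 7 members for bFGF in LacZ, 5 to 9 for TNFα in LacZ, 0 to 5 for bFGF in iCre, 3 to 6 for IL-1β in iCre and 3 to 7 for TNFα in iCre. For deletion it gave 0 to 1 in CTRL and with TGFβ, 2 to 6 with IL-1β and 3 to 5 with TNFα. For the interactions it gave 0 to 4 with IL-1β and 1 to 3 with TNFα, and 2 to 8 for IL-1β against TNFα. Scaling by raw library size kept 89 of 100 group means within 1 SD. Depth limits *Ngfr*, *Cd40* and *Tnfrsf9* most, at 1 to 64, 25 to 506 and 7 to 1104 counts a library.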
